A study of Mus musculus with 24 samples.

Results

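The genes described here are 9 microglia genes, Cx3cr1, P2ry12, Tmem119, Aif1, Csf1r, C1qa, C1qb, C1qc and Trem2, chosen by name as the rows of the normalized count table that carry these symbols. All 9 were among the 17270 genes of the table, and all 9 passed the filter of a mean above 5 normalized counts, which left 15982 genes for testing. The genes were followed through 24 RNA sequencing libraries of brain microvessels from male C57BL/6J mice of 10 to 12 weeks. Mice had either transient middle cerebral artery occlusion (tMCAO), in which a filament blocked the right vessel for 60 min before reperfusion, or sham surgery, in which the filament was pulled back at once. Vessels were taken after 24 h or 7 days from the operated (ipsilateral) and the other (contralateral) hemisphere, which made 8 groups of 3 libraries. No mouse carried a transgene by the labels, and all had anesthesia, the advance of the filament and intensive care after surgery. Each library pooled 3 hemispheres without meninges, so that 9 mice stood behind a group, and the whole hemisphere was used rather than the infarct alone. The 18 libraries from sham-operated mice and from contralateral hemispheres are called the control libraries below.

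Microglia are the resident macrophages of the brain parenchyma, seeded from the yolk sac and maintained by signals through the receptor CSF1R. At rest they sense neurons and vessels through receptors such as CX3CR1 and P2RY12, and processes of these cells touch capillaries. After injury they gather at the lesion and at leaky vessels, lower their resting genes and take up debris through receptors that include TREM2. Most of the 9 genes are also used by perivascular macrophages, infiltrating monocytes or macrophages derived from them, so that they mark a myeloid mixture in a microvessel preparation. In such bulk samples, fewer cells of a type and less RNA per cell cannot be told apart.

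The promoters of 3 members are shown because they belong to genes with contrasting behavior in the data described further on, the complement genes C1qb and C1qc, whose levels varied together across libraries, and Trem2, which stood apart at 7 days. The sequences are from RefSeq on the build GRCm38.p6, which has the coordinates of mm10, and each is 300 bases long, 5′ to 3′ on the strand of the gene. Capitals mark a match to one of the motifs searched on both strands, GAGGAAGT for PU.1, the lineage factor of macrophages, TGANTCA for the injury-responsive factor AP-1, the composite PU.1 and IRF element, and the TATA box, whose letters are TATAAA. None of these motifs contains another. The C1qb window is chr4:136886151-136886450 on the minus strand, that of C1qc is chr4:136892865-136893164 on the minus strand, and that of Trem2 is chr17:48346151-48346450 on the plus strand.
C1qb: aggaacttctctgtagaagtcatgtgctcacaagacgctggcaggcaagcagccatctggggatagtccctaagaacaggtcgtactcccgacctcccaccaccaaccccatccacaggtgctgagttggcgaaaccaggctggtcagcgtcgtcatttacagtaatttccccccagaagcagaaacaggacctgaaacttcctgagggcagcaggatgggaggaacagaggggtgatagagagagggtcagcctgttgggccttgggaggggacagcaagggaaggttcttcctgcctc
C1qc: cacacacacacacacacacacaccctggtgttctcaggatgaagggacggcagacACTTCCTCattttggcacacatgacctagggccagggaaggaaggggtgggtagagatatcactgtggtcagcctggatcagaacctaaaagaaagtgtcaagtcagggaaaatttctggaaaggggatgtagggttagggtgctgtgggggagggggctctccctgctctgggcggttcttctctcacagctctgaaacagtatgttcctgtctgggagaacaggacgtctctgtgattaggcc
Trem2: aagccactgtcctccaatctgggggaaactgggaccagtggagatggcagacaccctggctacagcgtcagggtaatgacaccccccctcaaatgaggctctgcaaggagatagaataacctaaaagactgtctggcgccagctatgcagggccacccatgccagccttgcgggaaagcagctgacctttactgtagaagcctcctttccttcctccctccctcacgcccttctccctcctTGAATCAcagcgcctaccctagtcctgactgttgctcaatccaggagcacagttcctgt

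Promoters of 6 of the 9 members were searched. C1qa and Tmem119 had none in the RefSeq table used here, and Csf1r was left out of the search. Among the 6, only the marked letters in C1qc and Trem2 matched a motif. The PU.1 letters of C1qc lay on the reverse strand at positions −195 to −188 from the RefSeq start of its window. That RefSeq start lies inside the gene span given below, not at its edge. Of 32851 promoters of the same length, 3.20% held that motif. The AP-1 letters of Trem2 lay at positions −9 to −3, and 7.81% of promoters held that motif. The other motifs were found in 2.72% (PU.1 and IRF) and 13.6% (TATA box) of promoters and in none of the 6 members. C1qa, C1qb and C1qc lie side by side on the minus strand of chromosome 4, C1qb (ENSMUSG00000036905) at 136880129 to 136886187, C1qc (ENSMUSG00000036896) at 136889804 to 136893065 and C1qa (ENSMUSG00000036887) at 136895917 to 136898803 of mm10. Trem2 (ENSMUSG00000023992) spans 48346401 to 48352273 on the plus strand of chromosome 17, and Aif1 (ENSMUSG00000024397) spans 35170991 to 35176001 on its minus strand.

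The other members lie apart. Cx3cr1 (ENSMUSG00000052336) is annotated at 119901616 to 120069879 of chromosome 9 on the minus strand, a model long enough to span 5 other protein-coding genes, with which it shares no exon bases. P2ry12 (ENSMUSG00000036353) is at 59216272 to 59262871 of chromosome 3 on the minus strand, inside Med12l of the opposite strand, with 9 shared exon bases. Tmem119 (ENSMUSG00000054675) is at 113793729 to 113800516 of chromosome 5 on the minus strand. Csf1r (ENSMUSG00000024621) shares 873 exon bases with Hmgxb3 on the opposite strand, at a mean of 646 normalized counts for Hmgxb3 and 1697 for Csf1r. Libraries were made with a strand-specific kit, but the strand setting of the counting is not given in the sources used here, so that reads in these shared bases cannot be assigned.

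The values are normalized counts, reads of a gene divided by a size factor of the library and rounded by the authors, and so relative to the 24 libraries together. The totals were 15924780 to 18787932 normalized counts per library, and size factors of 0.805 to 1.24 recovered from the spacing of low values gave an estimated 13692085 to 20033317 reads. Markers of endothelial cells were detected at high level throughout, with 6 genes summed to between 168622 and 250767 normalized counts per library. The 9 members together came to between 4176 and 9569 per library. No member was at 0 in any library.

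Taken per kilobase of exon, the mean level over 24 libraries was highest for C1qb (1332 normalized counts per kb) and C1qa (1259), followed by C1qc (735), the 3 chains of the complement starter C1q. Csf1r, the receptor for the survival factors CSF1 and IL-34, came next at 318 normalized counts per kb. Tmem119, a membrane protein that is used to tell microglia from other macrophages, had 71.1, the fractalkine receptor gene Cx3cr1 57.0, Aif1 56.5 and Trem2 52.3. P2ry12, the ADP receptor that guides microglial processes, was lowest at 32.2 normalized counts per kb. Per kilobase C1qb stood far above both P2ry12 and Cx3cr1 in these vessels, and the libraries include no isolated microglia to compare with. In the same preparation the perivascular macrophage gene Pf4 reached 360 and Mrc1 223 normalized counts per kb.

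**Figure D1:**
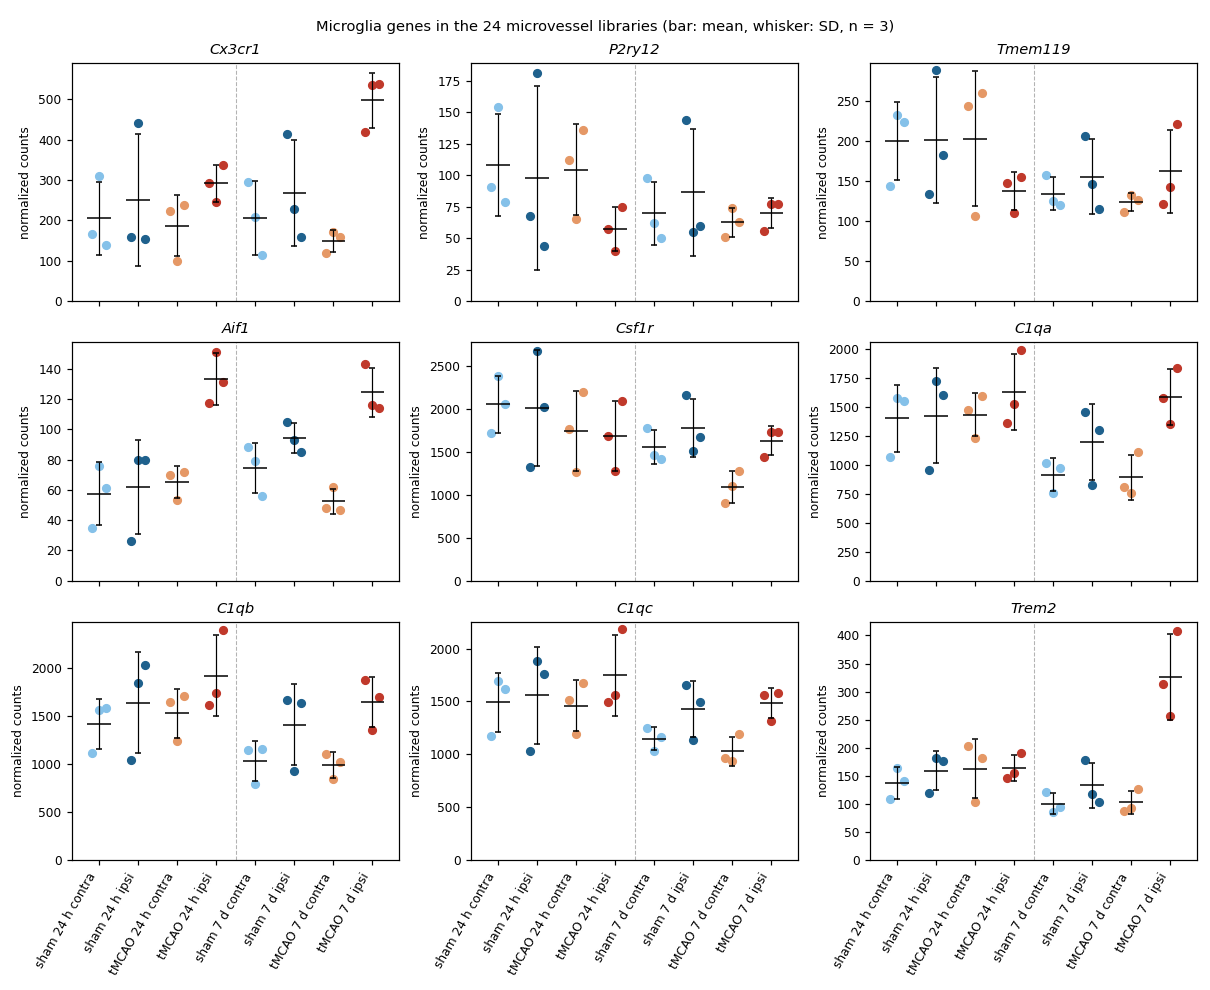
Normalized counts (y axis) of the 9 microglia genes in the 8 groups (x axis), with 1 point per library, a bar at the mean and whiskers of 1 SD over 3 libraries. The 3 tMCAO ipsilateral libraries of 7 days lie at 256 to 408 for Trem2, above all other groups, and both tMCAO ipsilateral groups lie above all control libraries for Aif1.

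Aif1 encodes IBA1, a calcium-binding protein of ruffling membranes and the most used stain for microglia and macrophages. In the tMCAO ipsilateral libraries of 24 h it had 117, 151 and 131 normalized counts, against 26, 80 and 80 in sham ipsilateral libraries of the same time. The contralateral hemispheres of the same time had 70, 53 and 72 after tMCAO and 35, 76 and 61 after sham surgery. At 7 days the tMCAO ipsilateral libraries had 143, 116 and 114, the sham ipsilateral libraries 105, 93 and 85, the tMCAO contralateral libraries 48, 62 and 47 and the sham contralateral libraries 88, 79 and 56. Thus every tMCAO ipsilateral library at both times was above every control library, whose range was 26 to 105.

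At 24 h, 1 of the 9 members passed the test in tMCAO against sham ipsilateral libraries, beside 18.3% of all 15982 genes, and it was Aif1. A gene was called when the Benjamini-Hochberg adjusted p of limma over all tested genes was under 0.05 and the log2 fold change, on the scale of log2(normalized count + 1), passed a 1.5-fold change in either direction. Aif1 rose from 62.0 ± 31.2 to 133 ± 17.1 normalized counts (mean ± SD, n = 3), a log2 fold change of 1.25 (SE 0.33, 2.37-fold) with an adjusted p of 0.00805 by limma. The call rested on 1 library: without sham ipsilateral replicate 1, which held 26, the log2 fold change was 0.72 with an adjusted p of 0.0609. Against the contralateral hemisphere of 24 h the log2 fold change was 1.03 (SE 0.33, limma adjusted p 0.0280), again with Aif1 as the only member called, beside 13.6% of all genes. That call was kept in 1 of 6 fits that left out a library, with adjusted p from 0.0482 to 0.0967.

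At 7 days Aif1 differed less from sham libraries than at 24 h in value, with a log2 fold change of 0.39 (SE 0.33, limma adjusted p 0.477). The libraries did not overlap, beside 30% of all genes without overlap in either direction and 13.4% that were higher. Of the 9 members 3 did not overlap in this comparison, and 1 did not at 24 h, beside 49% of all genes. For Aif1 the sham ipsilateral libraries of 7 days held 85 to 105 and those of 24 h 26 to 80, a difference of 0.76 on the log2 scale (limma adjusted p 0.301). The change of the Aif1 stroke effect between the times, −0.85 (95% interval −1.83 to 0.12), did not pass the test (limma adjusted p 0.254). Compared with contralateral vessels, Aif1 was higher at 7 days by 1.24 (SE 0.33, limma adjusted p 0.0117). Without tMCAO ipsilateral replicate 1 this adjusted p was 0.0591.

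Trem2 encodes a lipid-sensing receptor that signals through TYROBP and drives the injury program of microglia and other phagocytes. At 24 h it had 147, 155 and 190 normalized counts in tMCAO ipsilateral libraries, against 120, 182 and 176 in sham ipsilateral, 204, 103 and 181 in tMCAO contralateral and 108, 164 and 141 in sham contralateral libraries. These ranges overlapped. At 7 days the tMCAO ipsilateral libraries had 314, 256 and 408, against 178, 117 and 104 in sham ipsilateral, 88, 93 and 127 in tMCAO contralateral and 121, 85 and 95 in sham contralateral libraries. All 3 were above the 18 control libraries, which ranged from 85 to 204, and above the 3 tMCAO ipsilateral libraries of 24 h.

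Trem2 was the only member called in tMCAO against sham ipsilateral libraries at 7 days, beside 13.2% of all genes called and 3.27% called higher. Its mean rose from 133 ± 39.5 to 326 ± 76.7 normalized counts (SD, n = 3), a log2 fold change of 1.30 (SE 0.26, 2.46-fold, limma adjusted p 0.00163), and it was called in all 6 fits that left out a library. At 24 h the same comparison gave 0.06 (95% interval −0.49 to 0.61). The stroke effect at 7 days exceeded that at 24 h by 1.24 (SE 0.37, 95% interval 0.47 to 2.02, limma adjusted p 0.0386), and Trem2 was the only member called there, beside 8.12% of all genes. This call was kept in 4 of 12 fits that left out a library, with adjusted p from 0.0227 to 0.103, and in all 12 the difference stayed between 1.07 and 1.47.

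Within tMCAO ipsilateral vessels, Trem2 was higher at 7 days than at 24 h by 0.97 (SE 0.26, limma adjusted p 0.0144) and was again the only member called, beside 12.2% of all genes. Without tMCAO ipsilateral 24 h replicate 1 the adjusted p was 0.0650, and without 7 days replicate 3, the highest library, 0.0760. Trem2 was also higher than in the contralateral hemisphere at 7 days, by 1.65 (SE 0.26, 3.14-fold, limma adjusted p 1.28e-04). This call was kept in all 6 fits that left out a library. The comparisons with the tMCAO ipsilateral groups share these libraries, so that they do not count as separate evidence.

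**Figure D2:**
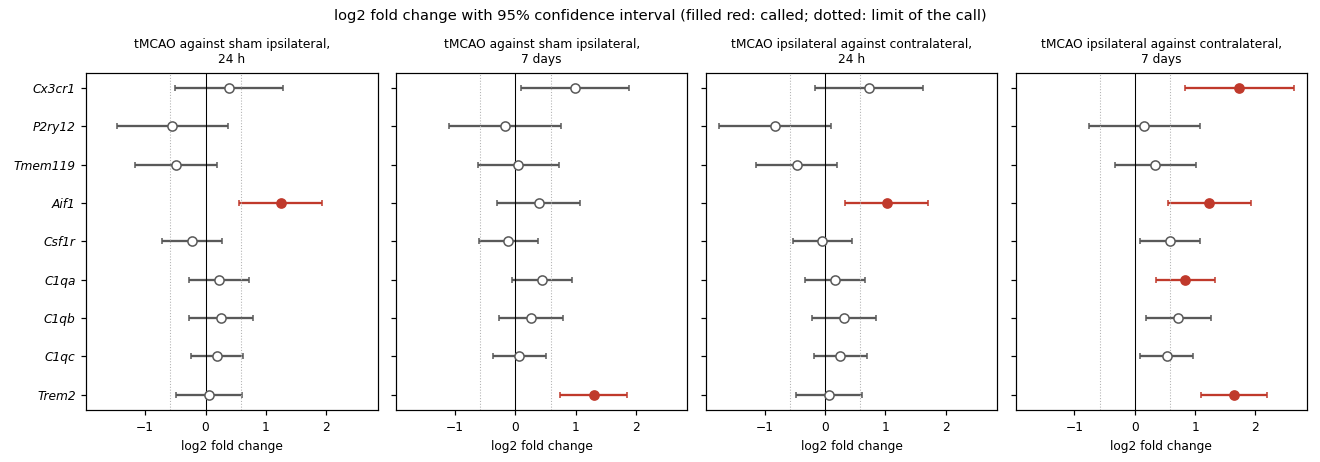
log2 fold change (x axis) of the 9 genes (y axis) with 95% confidence intervals in 4 comparisons, with red filled points for genes called and dotted lines at a 1.5-fold change in both directions. Aif1 is called in 3 of the panels, Trem2 in both panels of 7 days, and Cx3cr1 and C1qa in the comparison with the contralateral hemisphere at 7 days.

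Cx3cr1 encodes the receptor for fractalkine, which neurons and endothelial cells present. At 7 days the tMCAO ipsilateral libraries had 419, 536 and 537 normalized counts, against 413, 228 and 160 in sham ipsilateral, 119, 171 and 158 in tMCAO contralateral and 296, 208 and 114 in sham contralateral libraries. At 24 h the values were 292, 246 and 337 in tMCAO ipsilateral, 160, 440 and 154 in sham ipsilateral, 224, 100 and 238 in tMCAO contralateral and 167, 309 and 140 in sham contralateral libraries. The tMCAO ipsilateral libraries of 7 days lay above 17 of the 18 control libraries, and the remaining control, sham 24 h ipsilateral replicate 2, had 440. The mean was 497 ± 67.8 against 267 ± 131 in sham ipsilateral libraries at 7 days, a log2 fold change of 0.997 (95% interval 0.10 to 1.89) that did not pass the test (limma adjusted p 0.125). Compared with contralateral vessels, at 149 ± 27.1, Cx3cr1 was higher by 1.74 (SE 0.43, 3.33-fold, limma adjusted p 0.00678), which held in all 6 fits that left out a library. At 24 h its log2 fold change was 0.38 against sham ipsilateral and 0.72 against contralateral libraries, neither called.

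P2ry12 and Tmem119, the members most used to mark resting microglia, were not called in any of the 12 comparisons between groups in the fit of all 24 libraries without a replicate block. P2ry12 had 57, 40 and 75 normalized counts in tMCAO ipsilateral libraries at 24 h, against 68, 181 and 44 in sham ipsilateral, 112, 65 and 136 in tMCAO contralateral and 91, 154 and 79 in sham contralateral libraries. At 7 days it had 56, 77 and 77 in tMCAO ipsilateral, 144, 55 and 60 in sham ipsilateral, 51, 74 and 63 in tMCAO contralateral and 98, 62 and 50 in sham contralateral libraries. The groups overlapped in each comparison. Its log2 fold change at 24 h was −0.55 (95% interval −1.47 to 0.38) against sham ipsilateral libraries. That sign rested on sham ipsilateral replicate 2, which held 181, since the value was 0.02 without it. Relative to contralateral vessels it was −0.83 (SE 0.44, limma adjusted p 0.178). With a block for surgery, time and number, P2ry12 was called lower there, at a limma adjusted p of 0.04995, just under the limit.

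Tmem119 had 147, 110 and 155 normalized counts in tMCAO ipsilateral libraries at 24 h, against 134, 288 and 182 in sham ipsilateral and 243, 106 and 260 in tMCAO contralateral libraries, and 144, 232 and 224 in sham contralateral libraries. At 7 days it had 122, 143 and 221 in tMCAO ipsilateral, 206, 146 and 115 in sham ipsilateral, 112, 133 and 127 in tMCAO contralateral and 158, 125 and 120 in sham contralateral libraries. Its range in either tMCAO ipsilateral group lay inside that of the control libraries, 106 to 288. The log2 fold change at 24 h was −0.49 (95% interval −1.17 to 0.18) against sham ipsilateral libraries and −0.47 (95% interval −1.15 to 0.20) against the contralateral hemisphere. Without tMCAO contralateral replicate 2, which held 106, the latter was −0.88 and passed the test (limma adjusted p 0.0460). At 7 days these were 0.05 (95% interval −0.62 to 0.73) and 0.34 (95% interval −0.33 to 1.02).

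Csf1r had 1683, 1278 and 2099 normalized counts in tMCAO ipsilateral libraries at 24 h and 1437, 1735 and 1731 at 7 days. Sham ipsilateral libraries had 1328, 2682 and 2026 at 24 h and 2160, 1511 and 1674 at 7 days. The groups overlapped, and the log2 fold changes of −0.23 at 24 h (95% interval −0.72 to 0.27) and −0.11 at 7 days (95% interval −0.60 to 0.38) were not called. Contralateral libraries had 1765, 1273 and 2205 after tMCAO and 1723, 2387 and 2065 after sham surgery at 24 h. At 7 days the tMCAO contralateral libraries had 909, 1102 and 1283 and the sham contralateral ones 1782, 1464 and 1417. These did not overlap, beside 9.8% of all genes (log2 fold change −0.51, SE 0.24, limma adjusted p 0.470). Besides the tMCAO contralateral libraries of 7 days, only replicate 2 of either hemisphere at 24 h after tMCAO, at 1273 and 1278, was below 1283. Against the contralateral hemisphere the tMCAO ipsilateral libraries of 7 days did not overlap either, beside 25.3% of all genes. The log2 fold change was 0.58 (SE 0.24, limma adjusted p 0.107).

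The C1q chains assemble into the molecule that starts the classical complement pathway and tags synapses and debris. C1qa had 1365, 1522 and 1992 normalized counts in tMCAO ipsilateral libraries at 24 h and 956, 1720 and 1600 in sham ipsilateral libraries. C1qb had 1620, 1741 and 2402 against 1043, 1848 and 2028, and C1qc had 1493, 1562 and 2188 against 1034, 1885 and 1756. For all 3 chains the sham range overlapped that after tMCAO, and sham replicate 1 was the lowest library. The log2 fold changes were 0.22 for C1qa, 0.26 for C1qb and 0.19 for C1qc, none called, and each was below 0 without sham replicate 1 (−0.05, −0.03 and −0.08).

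At 7 days C1qa had 1575, 1352 and 1833 normalized counts in tMCAO ipsilateral libraries, 1458, 829 and 1298 in sham ipsilateral, 806, 756 and 1113 in tMCAO contralateral and 1017, 754 and 974 in sham contralateral libraries. The tMCAO ipsilateral libraries were above the contralateral ones of either surgery without overlap, and overlapped with those of sham ipsilateral vessels. C1qb had 1879, 1358 and 1703 in tMCAO ipsilateral and 1110, 849 and 1020 in tMCAO contralateral libraries, and C1qc had 1557, 1317 and 1576 and 965, 936 and 1188. Against the contralateral hemisphere C1qa was higher by 0.84 (SE 0.24, 1.79-fold, limma adjusted p 0.0170), C1qb by 0.72 in value (adjusted p 0.0590) and C1qc by 0.53 in value (adjusted p 0.0964). The C1qa call was kept in 2 of 6 fits that left out a library, with adjusted p from 0.00900 to 0.0740. C1qb was called in 1 of 6 such fits and in 4 of the 8 other settings given at the end.

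Between the hemispheres after tMCAO at 7 days, 4 of the 9 members were called higher on the ipsilateral side (Cx3cr1, Aif1, C1qa and Trem2) and none lower, beside 13% of all genes called and 3.03% called higher. All 9 log2 fold changes were above 0, with a median of 0.72 beside 0.03 over all genes, and for 7 members the libraries did not overlap, beside 10.7% of all genes that were higher without overlap. The count was 2 without tMCAO ipsilateral replicate 1 and 5 at most without another library. Sham-operated mice had positive values for all 9 members in the same comparison of hemispheres at 7 days, with a median of 0.36, while no member and no other gene was called by limma in it and 359 genes had an unadjusted p under 0.05. Over the 3 pairs of same-numbered sham libraries of 7 days, 7 members (all but P2ry12 and Tmem119) were higher on the ipsilateral side in every pair, beside 14.7% of all genes, and no member was called with a replicate block. At 24 h sham hemispheres gave a median of 0.01 and no call among all genes either, with 367 genes at an unadjusted p under 0.05.

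The contralateral side moved in value as well. In tMCAO contralateral libraries all 9 members were lower at 7 days than at 24 h, with a median of −0.62, and 5 of them (Csf1r, C1qa, C1qb, C1qc and Trem2) had an unadjusted p under 0.05 by limma, beside 16.5% of all genes. No member and 0 of all genes passed the adjusted test there, although 2637 genes had an unadjusted p under 0.05. For 7 members (Cx3cr1, Tmem119, Aif1, Csf1r and the 3 C1q genes) the tMCAO contralateral group of 7 days had the lowest mean of the 8 groups. In sham contralateral libraries 8 of 9 members were lower at 7 days than at 24 h in value, with a median of −0.45, 0 members called and 0.332% of all genes called. Between tMCAO and sham contralateral libraries no member was called at 24 h (0% of genes, with 405 at an unadjusted p under 0.05) or at 7 days (0.0313%), and in sham ipsilateral libraries no member was called between the times (0.476%).

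**Figure D3:**
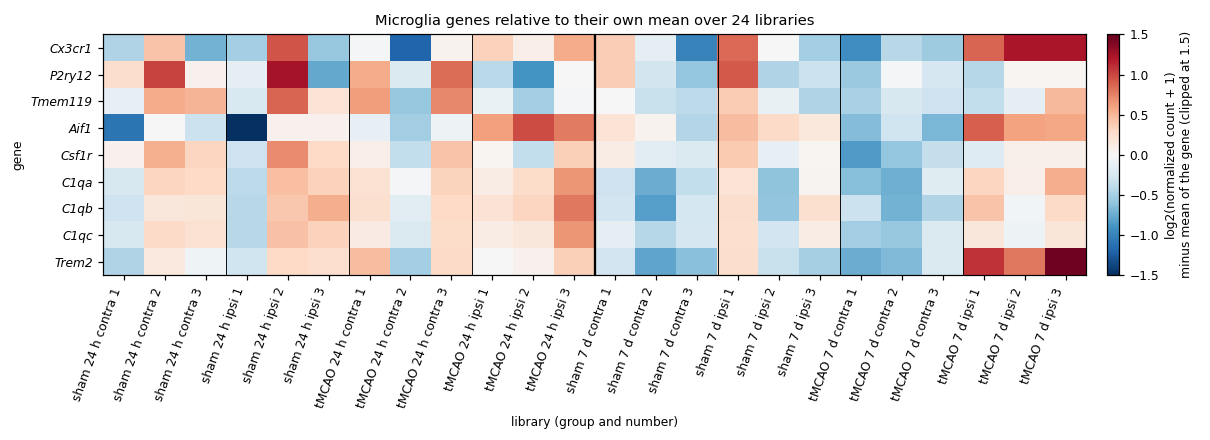
Deviation of each of the 9 genes (rows) from its own mean over the 24 libraries (columns), on the scale of log2(normalized count + 1), with colors limited to 1.5 in both directions and the line between 24 h and 7 days. Libraries of 1 group can differ across all genes, as do sham 24 h ipsilateral replicate 1, in which no member is above its mean, and replicate 2, in which all 9 are, and Cx3cr1 and Trem2 stand out at the right end.

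Within groups, single libraries stood apart across members. Sham 24 h ipsilateral replicate 2 was above the mean of all 24 libraries for all 9 members and the highest of its group for 8, whereas replicate 1 was above it for none and the lowest of its group for 7. The tMCAO 24 h contralateral replicate 2 was the lowest of its group for all 9, and sham 7 days ipsilateral replicate 1 the highest of its group for all 9. After the group means were removed, Pearson correlations of the 36 pairs of members over the 24 libraries ran from 0.23 to 0.96. The highest were 0.96 between C1qa and C1qc and 0.93 between Cx3cr1 and P2ry12. The lowest were 0.23 between Cx3cr1 and C1qb, 0.29 between P2ry12 and C1qb and 0.34 between P2ry12 and Aif1. These values describe 24 libraries that were normalized together, and carry no test.

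With the differences between groups left in, some pairs correlated less. Over the 24 libraries as they were, the C1q genes still correlated at 0.94 in each pair, but Cx3cr1 and P2ry12 at 0.44 and P2ry12 and Aif1 at −0.06. Differences between the 8 group means made up 75.6% of the log2 variance of Trem2 and 67.0% of that of Aif1, but 27.1% of that of P2ry12 and 32.3% of that of Tmem119. The shares are not adjusted for fitting 8 means to 24 libraries, so that a part of each arises without any group effect. For P2ry12 the SD within groups was 0.589 and that over all libraries 0.575, and for Tmem119 they were 0.428 and 0.434. Within a library, P2ry12 minus Cx3cr1 on the log2 scale was −2.59 to −2.15 in tMCAO ipsilateral libraries at 24 h and −2.88 to −2.78 at 7 days, and −2.03 to −0.61 in the 18 control libraries. So the level of P2ry12 relative to Cx3cr1 was lower in all 6 tMCAO ipsilateral libraries than in any control. The margin at 24 h was small, −2.15 against −2.03. Several such ratios were computed, and how many other gene pairs separate these libraries as well was not examined.

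Other ratios within the library separated single time points. Trem2 minus the mean of the 3 C1q genes was −2.40 to −2.06 at 7 days after tMCAO in ipsilateral vessels, outside the −3.81 to −2.91 of the control libraries, and −3.52 to −3.33 at 24 h, inside it. Cx3cr1 minus Csf1r was −1.78 to −1.69 at 7 days, above the control range of −3.87 to −2.38. At 24 h the same ratio was −2.64 to −2.37, overlapping the upper end of the controls. P2ry12 and Tmem119 relative to C1q were at the low end at 24 h, at −5.29 to −4.68 and −3.86 to −3.33, but overlapped with control libraries, whose lowest values were −5.31 and −3.67. These ratios are descriptions without a test.

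**Figure D4:**
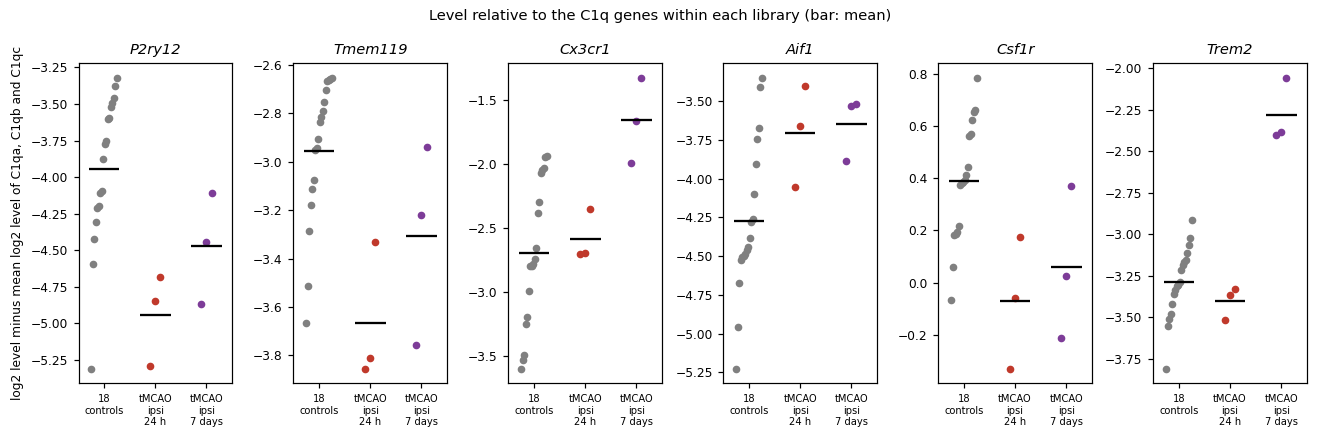
Level of 6 members relative to the mean of C1qa, C1qb and C1qc within each library (y axis, log2 units), with 1 point per library for the 18 control libraries and the tMCAO ipsilateral libraries of 24 h and 7 days (x axis) and a bar at the mean. Trem2 at 7 days lies above every control, with −2.40 to −2.06 against −3.81 to −2.91, while P2ry12 and Tmem119 lie low at 24 h and overlap the controls.

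The genes with the most similar profiles over the 24 libraries were ranked among 13569 genes with a mean of at least 20. Closest to the mean of the 9 members were Pld4 (Pearson r 0.83), an endosomal exonuclease gene of microglia and dendritic cells, Cd248 (0.83), a pericyte and fibroblast gene, and the basement membrane gene Lamb1 (0.81). Genes with profiles like that of Trem2 included Ltc4s (0.88), the leukotriene C4 synthase, and Pld4 (0.86), and P2ry12 was most similar to Siglech (0.84), Aldh1a7 (0.83) and Gpr34 (0.83). Cx3cr1 was closest to Lpcat2 (0.87), Aif1 to Clec12a (0.87), Tmem119 to Anpep (0.85), C1qa to Abcc3 (0.83), C1qb to the Fc receptor gene Fcgr3 (0.90) and C1qc to Fam105a (0.88). Csf1r was closest to the collagen genes Col1a1 (0.91) and Col1a2 (0.90), which are products of fibroblasts. The points share libraries and normalization, so these are likenesses and no more.

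The ligands and partners of the members comprised 8 genes. Tyrobp, the signaling adaptor of TREM2, was called higher after tMCAO in ipsilateral vessels at 24 h (log2 fold change 0.94 against sham, limma adjusted p 0.00517) and had 0.56 (adjusted p 0.109) at 7 days. It was called at both times against contralateral vessels, with 0.92 and 1.20. Apoe, a lipid carrier and TREM2 ligand, fell by 0.88 at 24 h (limma adjusted p 0.00166), and Cx3cl1, the ligand of CX3CR1, fell by 0.89 at 7 days against sham (adjusted p 0.0131), a call lost without sham ipsilateral replicate 3 or tMCAO ipsilateral replicate 2. In the sham ipsilateral libraries of 7 days Cx3cl1 had 4198, 4247 and 6017 normalized counts, and in the tMCAO ipsilateral ones 2851, 2069 and 2876. Of the CSF1R ligands, Csf1 was called higher at 7 days against the contralateral hemisphere (0.59, kept in 3 of 6 fits that left out a library) and Il34 in none of the 4 stroke comparisons. Of the complement partners, the protease gene C1ra was called higher at 24 h against the contralateral hemisphere (0.76, kept in 2 of 6 such fits), and C1s1 and the inhibitor gene Serping1 were not called. In all, 1 of 8 rose and 1 fell at 24 h against sham, and 0 rose and 1 fell at 7 days, with medians of −0.18 and 0.10. Over all genes, 10% were called higher and 8.23% lower at 24 h against sham, and 3.27% and 9.95% at 7 days. Against the contralateral hemisphere the shares were 8.51% and 5.14% at 24 h and 3.03% and 9.98% at 7 days. The counts of the lists that follow stand beside the same shares.

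Other genes of resting microglia comprised 8 genes. Against sham ipsilateral libraries at 24 h, 4 fell and 0 rose, beside 8.23% of all genes called lower and 10% higher. The median was −1.01 beside −0.02 over all genes. Crybb1, a crystallin gene, fell by 1.36 (limma adjusted p 0.0349), the lectin gene Siglech by 1.25 (0.0248), the secreted olfactomedin gene Olfml3 by 1.14 (0.0178) and the transcription factor gene Sall1 by 0.62 (0.0309). The count was 0 without sham ipsilateral replicate 2 or tMCAO ipsilateral replicate 2, and 1 without tMCAO ipsilateral replicate 1. At 7 days 0 rose and 1 fell, Sall1 (−0.86, limma adjusted p 0.00710), and the median was −0.15. Against the contralateral hemisphere 1 fell at 24 h (Siglech, −1.40) and 1 rose at 7 days (Fcrls, 1.26), the latter lost without tMCAO contralateral replicate 1.

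The count of 1 at 24 h was sensitive to the processing, since 4 genes fell against the contralateral hemisphere with median centring or without tMCAO contralateral replicate 2 or tMCAO ipsilateral replicate 3, and 0 without tMCAO contralateral replicate 1 or 3 or tMCAO ipsilateral replicate 1 or 2. Siglech had 19, 17 and 34 normalized counts in tMCAO ipsilateral libraries at 24 h and 37, 58 and 73 at 7 days, against 44, 112 and 32 and 80, 54 and 49 in sham ipsilateral libraries. At 24 h only tMCAO replicate 3 overlapped with the sham range. Crybb1 was the only gene of this list for which the stroke effects of the times differed (2.18, SE 0.67, limma adjusted p 0.0427). The call was kept in 5 of 12 fits that left out a library, and Crybb1 is a low gene at 5 to 43 normalized counts.

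Genes that microglia raise at plaques and lesions, the disease-associated program, comprised 13 genes. Some of them, such as Apoe, Ctsb, Ctsd and Lyz2, belong to an early stage of the program that does not need TREM2, and others, such as Itgax, Cst7 and Clec7a, to the later stage that does. At 7 days against sham ipsilateral libraries 6 rose and 1 fell, beside 3.27% and 9.95% of all genes, with a median of 0.43. The transmembrane glycoprotein gene Gpnmb rose by 3.76 (limma adjusted p 0.0471), the cystatin gene Cst7 by 2.95 (0.00786) and the integrin gene Itgax by 1.75 (4.45e-04), and the tetraspanin gene Cd63 fell by 0.64 (0.0190). At 24 h 3 rose (Itgax, 1.79, Lyz2, 1.14, and the pattern receptor gene Clec7a, 1.04, the latter call kept in 3 of 6 fits that left out a library) and Apoe fell, with the same median of 0.43. Against the contralateral hemisphere 6 rose at 7 days, and 4 rose and 1 fell at 24 h.

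Gpnmb had 553, 310 and 396 normalized counts in tMCAO ipsilateral libraries at 7 days and 116, 4 and 46 in sham ipsilateral libraries, and at 24 h 11, 142 and 20 against 118, 4 and 191. It is thus high in all 3 libraries of 7 days and scattered elsewhere, and its call at 7 days against sham was kept in 1 of 6 fits that left out a library. Cst7 had 29, 28 and 37 at 7 days and at most 7 in any control library, and 26 in tMCAO ipsilateral 24 h replicate 2. Its mean over the 24 libraries, 6.63, passed the filter of 5 only through the tMCAO ipsilateral libraries of 7 days. Its place among the 6 that rose is therefore no independent support. The count of 6 was 3 without sham ipsilateral replicate 2 or tMCAO ipsilateral replicate 1, and 3 to 5 over all 6 fits that left out a library. The Cd63 call was lost in 4 of these 6 fits. Ctsd and Cd63 were the genes of this list whose stroke effects differed between the times, Ctsd higher at 7 days (0.65, limma adjusted p 0.0375) and Cd63 lower (−1.07, adjusted p 0.0123). The Ctsd call was kept in 4 of 12 fits that left out a library and the Cd63 call in all 12.

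**Figure D5:**
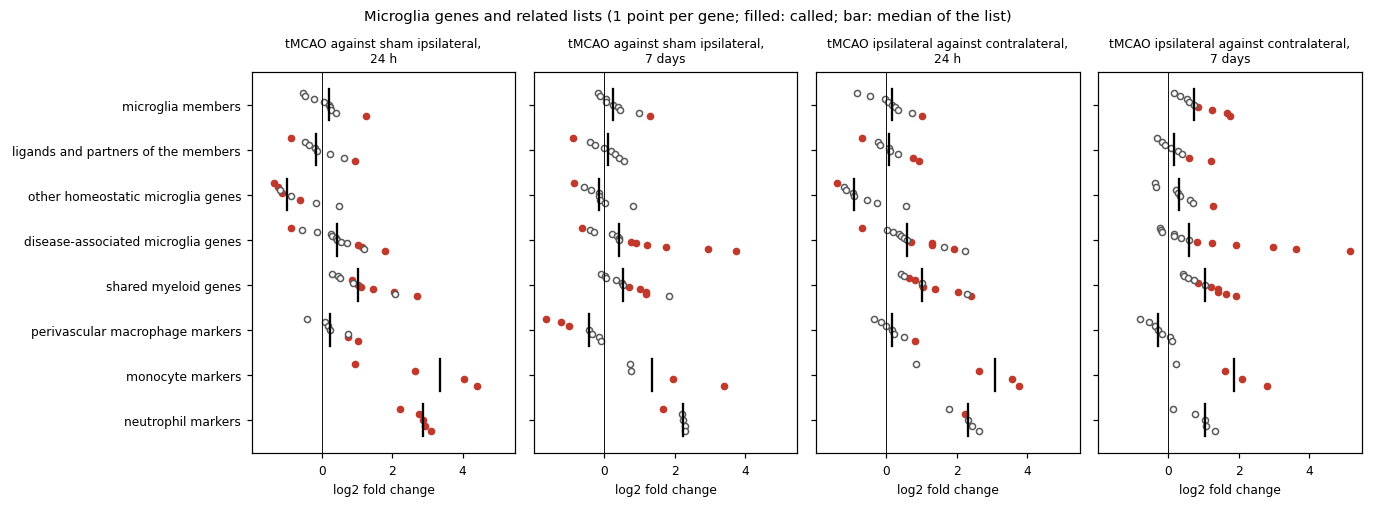
log2 fold change (x axis) of each gene of 8 lists (y axis) in 4 comparisons, with 1 point per gene, filled where the gene is called, and a bar at the median of the list. Monocyte markers lie furthest to the right at 24 h, with a median of 3.34 against sham, while other genes of resting microglia have a median of −1.01.

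Of 11 genes that myeloid cells share, 6 rose and 0 fell at 24 h against sham ipsilateral libraries, with a median of 1.02. Over all genes 10% rose and 8.23% fell there. Itgam, the integrin CD11b, rose by 2.71 (limma adjusted p 8.68e-07), the leukocyte phosphatase gene Ptprc by 2.05, the PU.1 gene Spi1 by 1.44 and the protease gene Ctss by 1.02. At 7 days 4 rose and 0 fell, with a median of 0.52, Ctss and Ptprc by 1.20 each and Itgam by 1.02, and 1 rose without tMCAO ipsilateral replicate 1, 2 without tMCAO ipsilateral replicate 2 or sham ipsilateral replicate 2. For Itgam the stroke effect was smaller at 7 days than at 24 h (−1.69, SE 0.37, limma adjusted p 0.00723), the reverse of the sign for Trem2.

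Markers of other cells moved at the same times. All 4 monocyte markers rose at 24 h against sham ipsilateral libraries, from Ly6c2 (0.93) to Chil3 (4.42), with sums of 1926 to 4135 normalized counts per library in tMCAO ipsilateral vessels, 138 to 600 in the control libraries and 561 to 2485 at 7 days, when 2 of 4 rose. The monocyte chemokine receptor gene Ccr2 had 612, 417 and 686 normalized counts in tMCAO ipsilateral libraries at 24 h and 258, 289 and 54 at 7 days. The count at 7 days was 1 without sham ipsilateral replicate 1 or 2 or tMCAO ipsilateral replicate 1 or 2, and 4 without tMCAO ipsilateral replicate 3. All 5 tested neutrophil markers rose at 24 h and 1 at 7 days. At 24 h 1 rose without sham ipsilateral replicate 1 or tMCAO ipsilateral replicate 1 or 2, and 2 without sham ipsilateral replicate 3. At 7 days 0 rose without sham or tMCAO ipsilateral replicate 1 or 2, 4 without sham ipsilateral replicate 3 and 2 without tMCAO ipsilateral replicate 3. Their sums were 2301 to 5389 at 24 h, 686 to 4109 at 7 days and 87 to 1971 in the control libraries, and Ly6g and Ngp were at 0 in 2 and 3 libraries. The 7 markers of perivascular macrophages gave 2 rises at 24 h (Pf4, 1.03, and F13a1, 0.74), both lost without sham ipsilateral replicate 1. At 7 days 3 fell and 0 rose (Pf4 by 1.66, Mrc1 by 1.23 and Ms4a7 by 0.99), with sums of 2104 to 2655 in tMCAO ipsilateral libraries and 2678 to 6214 in the controls.

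The part of these cells in the values of Aif1, Trem2, Cx3cr1 and the C1q genes was not tested. T cell markers had sums of 25 to 83 normalized counts over all 24 libraries, with Cd3d, Cd3e and Cd3g at 0 in 1, 2 and 1 libraries. The only one tested, Trac, fell by 1.12 at 7 days against sham (lost without tMCAO ipsilateral replicate 1). The untested ones, all low, did not share this fall. Cd3d had its highest group mean in tMCAO ipsilateral libraries of 7 days (9.0), and Cd3e (9.67) and Cd3g (9.0) had theirs in those of 24 h. Of the 4 tested proliferation genes none was called at 24 h against sham and all 4 rose at 7 days, by 1.97 to 2.69, with sums of 273 to 336 in the tMCAO ipsilateral libraries of 7 days and 35 to 89 in the control libraries. All 4 neuron markers fell at 7 days, beside 9.95% of all genes, with sums of 260 to 453 against 1626 to 9054 in the controls. No endothelial marker was called at 7 days, and 1 of 6 fell at 24 h (Slco1a4). Of 4 pericyte markers 1 fell at 24 h (Rgs5) and 0 at 7 days, of 5 astrocyte markers 2 and 1 fell, and of 4 oligodendrocyte markers 2 and 1. The other endothelial and pericyte markers, none called, went in both directions in value. Pecam1 (34144), Cdh5 (19524), Pdgfrb (9515) and Kcnj8 (1599) had their highest group mean in tMCAO ipsilateral libraries of 24 h, and Flt1 (46805) its lowest. In those of 7 days Cldn5 (68903) and Tie1 (14692) had their highest group mean and Abcc9 (1132) its lowest. The astrocyte markers did not all go down in value. Gfap, not called, had its highest group mean in tMCAO ipsilateral libraries of 7 days, at 4238 normalized counts. Gja1, not called, had its highest group mean in those of 24 h (3508) and its lowest in those of 7 days (1251).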

How the data were processed

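Microvessel RNA was sequenced from 24 libraries, 3 per group. Per the labels' processing notes, the tools were FastQC, STAR 2.5.2b, featureCounts 1.5.1 of the Subread package and DESeq2 1.6.2, with the build mm10 (GRCm38). The authors' paper gives other versions of STAR and DESeq2. The authors deposited a score per gene and library, reads on genes divided by a DESeq2 size factor and rounded to whole numbers, so that the values are not reads and no count model was used. Libraries that the authors left out are not analysed here. The authors' own fold changes and p-values were not used.

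With limma (version 3.58.1, R 4.3.3; tables handled with data.table, version 1.17.8), log2(normalized count + 1) of the 15982 genes with a mean above 5 was fitted over all 8 groups with a mean-variance trend, with Benjamini-Hochberg adjustment over the genes tested. The 12 comparisons between groups and the difference of the ipsilateral stroke effects were tested. Python 3.11.15 with numpy 2.4.6, pandas 2.3.3 and matplotlib 3.10.9 gave summaries and figures. The fit was tested on simulated data. Exon lengths and overlaps came from GENCODE within the gene coordinates of the table, and promoters from RefSeq.

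The members and the gene lists were chosen with earlier results of these data known. In the list of other genes of resting microglia, 1 gene of the original 9 is not reported here. By rule, the 9 members are named, up to 4 genes of a list with the largest and smallest changes among those called, and the 3 genes most similar in profile. Other genes named in the text were chosen after their values were seen. Deviations of same-numbered libraries correlated at over 0.1 in every pair for the hemispheres of sham-operated mice (means 0.293 at 24 h and 0.411 at 7 days), so that the numbers were taken as pairs there, and in no other comparison. Alternatives were a pseudocount of 0.5, no filter, a minimum mean of 20, median centring, blocks for the replicate number or for surgery, time and number together, only the compared groups, no fold limit and each library left out. Intervals are at 95% and cover the spread between pools. The precision of a group mean rests on 3 libraries.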

Additional observations from a re-analysis of the deposited data

Results flagged for a closer look

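The effect of tMCAO on Trem2 in ipsilateral vessels differed between the times. On the log2 scale it was 1.30 at 7 days and 0.06 at 24 h, a difference of 1.24 (SE 0.37) that passed limma's test of the difference itself with a Benjamini-Hochberg adjusted p of 0.0386. The adjusted p was between 0.0292 and 0.0412 over the 8 other settings and between 0.0227 and 0.103 when single libraries were left out. All 3 tMCAO ipsilateral libraries of 7 days were above all 3 of 24 h. Over the 12 fits without a library, 4 kept the call.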

How the results depend on the processing

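No value of a member that was called under either setting changed its direction under any alternative. Of 1692 recomputed log2 fold changes of members, 106 changed sign, none of them called, the largest being that of P2ry12 at 24 h against sham (−0.55, and 0.02 without sham ipsilateral replicate 2). Of 188 recomputed counts of members called, 169 stayed within 1.5 times and 19 moved. The 169 include every count of the comparisons in which 0 members were called under all settings. Those counts say nothing about the calls that were made, and all 19 moved counts were in the comparisons with a call. Tested in the compared groups alone, the count was 0 instead of 1 for tMCAO against sham ipsilateral at 24 h (Aif1 adjusted p 0.0504 by limma) and 2 instead of 1 for tMCAO ipsilateral at 7 days against 24 h (Cx3cr1 and Trem2). With surgery, time and number as a random replicate block, which treats same-numbered hemispheres as the same mice although the sources do not state it, it was 2 instead of 1 for the hemispheres at 24 h after tMCAO (P2ry12 and Aif1). For these hemispheres the residual correlations of same-numbered libraries were 0.07, 0.36 and 0.33. Not every pair was over 0.1, so they were not taken as pairs, which does not show that they hold different mice. In the sham hemispheres, where the numbers pair, either block left 0 members called, and the block changed no other count by more than 1.5 times. Between the hemispheres at 7 days after tMCAO, C1qb was also called with the block for number (limma adjusted p 0.0334). With the block for surgery, time and number its limma adjusted p was 0.00657. Without 1 library the count ranged from 0 to 1 for tMCAO against sham at 24 h, from 1 to 1 at 7 days, from 0 to 1 for 7 days against 24 h, from 0 to 1 for the hemispheres at 24 h, from 2 to 5 at 7 days and from 0 to 1 for the difference of the stroke effects, and it stayed at 0 in the other comparisons. The difference of the stroke effects lost its call without sham ipsilateral replicate 2 or 3 of either time, tMCAO ipsilateral 24 h replicate 1 or 2, or tMCAO ipsilateral 7 days replicate 1 or 3. Where a cause is not given by fewer samples, it was not tested. With 3 pools per group, the 95% interval of P2ry12 at 24 h against sham (−1.47 to 0.38) leaves both a fall and no change possible.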
